A study of Danio rerio with 8 samples.

Results

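Potassium channel genes were followed across cells sorted from adult zebrafish brain. Every gene of the deposited count table was matched to its zebrafish gene name, and a name beginning with kcn, then letters and a number, was taken when it had at least 10 counts summed over the 8 libraries. Of 31388 genes, 124 carried such a name and 113 met the minimum, while 11 did not and 3 of those had no count. The members just inside the minimum were kcnmb3, kcna6a and KCNJ1 (ENSDARG00000088484) with 11 counts each, and those just outside were kcnj20 with 5 counts, KCNMB2 (chromosome 2) with 4 and kcnh6b with 3. By name, 21 were inward rectifiers (kcnj), 20 were two-pore channels (kcnk), 49 were voltage-gated pore-forming subunits (kcna, kcnb, kcnc, kcnd, kcnf, kcng, kcnh, kcnq, kcns and kcnv), 9 were calcium- or sodium-activated channels (kcnma, kcnn and kcnt) and 14 were auxiliary subunits (kcnab, kcne, kcnip and kcnmb). A symbol can stand for several zebrafish paralogues, and the 39 members whose symbol is shared with another gene are told apart by chromosome, or by Ensembl ID where copies share one.

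All libraries came from brains of Tg(her4.1:EGFP) fish at 6 mpf (months post fertilization), in which the her4.1 promoter, active in radial glia, drives a green fluorescent protein (GFP). Radial glia serve as stem cells in the fish brain. The fish had received either buffered saline (PBS) or the peptide interleukin-4 (IL4), and 24 hours later the brain cells were separated by fluorescence into a GFP-positive and a GFP-negative fraction. Each of the 4 combinations of injection and fraction had 2 libraries, and transgene and age were the same in all. The labels do not say whether libraries came from separate fish or from pools. The p-values set a difference against a spread between libraries that is estimated over all 4 groups, and this spread may be technical.

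Potassium channels let potassium leave or enter the cell and so set the resting membrane potential and shape electrical activity. Inward rectifiers pass current best near rest and, in mammalian astrocytes, KCNJ10 carries the potassium uptake that clears the space around active neurons. Two-pore channels give a background leak, voltage-gated channels open on depolarization and end the action potential, and calcium- or sodium-activated channels open as these ions accumulate. Auxiliary subunits bind the pore and change its gating or its delivery to the membrane.

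Depth was similar in all groups, with 19242851 to 26582271 counts per library. Summed levels of radial glia markers ran from 49091 to 50138 CPM (counts scaled to the library size after TMM normalization) in PBS GFP-positive libraries and from 2582 to 2604 CPM in PBS GFP-negative libraries. Neuron markers ran the other way, from 758 to 788 CPM against 4848 to 4891 CPM, and oligodendrocyte markers from 1977 to 2057 CPM against 15082 to 15285 CPM. After IL4 the neuron sum was 1196 to 1204 CPM in GFP-positive and 6739 to 6797 CPM in GFP-negative libraries, and the radial glia sum in GFP-positive libraries was 37630 to 37757 CPM. The GFP-negative fraction is a mixture, in which fewer cells of a type and less RNA per cell cannot be told apart. The part that cell makeup plays in the results below was not tested.

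The first question was how the channel classes divide between the sorted fractions. Potassium channel transcripts made up 0.155% and 0.154% of counts in the PBS GFP-negative libraries and 0.0259% and 0.0268% in the PBS GFP-positive libraries. After IL4 the shares were 0.182% in both GFP-negative libraries and 0.0323% and 0.0316% in the GFP-positive libraries. Most tested channel genes of each of the 5 classes were lower in GFP-positive cells, and 6 genes were higher in GFP-positive cells after PBS, IL4 or both.

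The filter on low counts kept 97 of the 113 members for testing with edgeR's quasi-likelihood F test: 17 inward rectifiers, 18 two-pore channels, 41 voltage-gated subunits, 9 calcium- or sodium-activated channels and 12 auxiliary subunits. A gene was called at a Benjamini-Hochberg adjusted p under 0.05 over all 20508 genes tested. Between GFP-positive and GFP-negative cells after PBS, 71.7% of all genes tested were called, 32.6% higher and 39.1% lower in GFP-positive cells. Of the 97 members, 5 were higher and 82 lower, and 71 of the 82 lower calls held under all 13 alternative settings. The members' median log2 fold change was -2.48, beside -0.14 over all genes tested. Scaling by library totals moved the split of all genes from 6691 higher and 8022 lower to 4231 and 10753, and that of the members to 3 and 84. After IL4, 66.6% of all genes were called, 32.4% higher and 34.3% lower, and 6 members were higher and 76 lower, with a median of -2.20 beside -0.05. Library totals moved that split of all genes from 6642 and 7024 to 4332 and 9833, and that of the members to 3 and 80. The 2 comparisons use different libraries. Of the members, 73 were lower in both, 5 were higher in both, and 6 were called in neither. A further 9 were lower after PBS alone, 3 were lower after IL4 alone, and 1 was higher after IL4 alone. The same cross count was not made over all genes tested, so whether the members' agreement is unusual is not known.

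By class after PBS, 13 of 17 inward rectifiers were lower in GFP-positive cells and 2 higher, with a median log2 fold change of -2.52. For two-pore channels 15 of 18 were lower and 1 higher (median -2.30), and for voltage-gated subunits 37 of 41 were lower and 0 higher (median -2.74). Of the calcium- or sodium-activated channels 6 of 9 were lower and 2 higher (median -2.27), and of the auxiliary subunits 11 of 12 were lower and 0 higher (median -2.58). After IL4 the medians in the same order were -1.76, -1.92, -2.33, -1.86 and -2.17. Cell type markers differed in direction after PBS. Lower in the GFP-positive fraction were 17 of 17 neuron markers (median -3.14) and 10 of 11 microglia and macrophage markers (median -3.54). So were 7 of 8 endothelium markers (median -3.51), 2 of 2 erythrocyte markers and 7 of 10 oligodendrocyte markers (median -1.62, with 1 higher). Higher were 11 of 13 radial glia markers (with 1 lower) and 4 of 5 ependyma and motile cilia markers (median 2.28, with 0 lower). Of 8 mural markers 3 were higher and 3 lower (median 0.66). Whether one class differs from another was not tested.

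**Figure D1:**
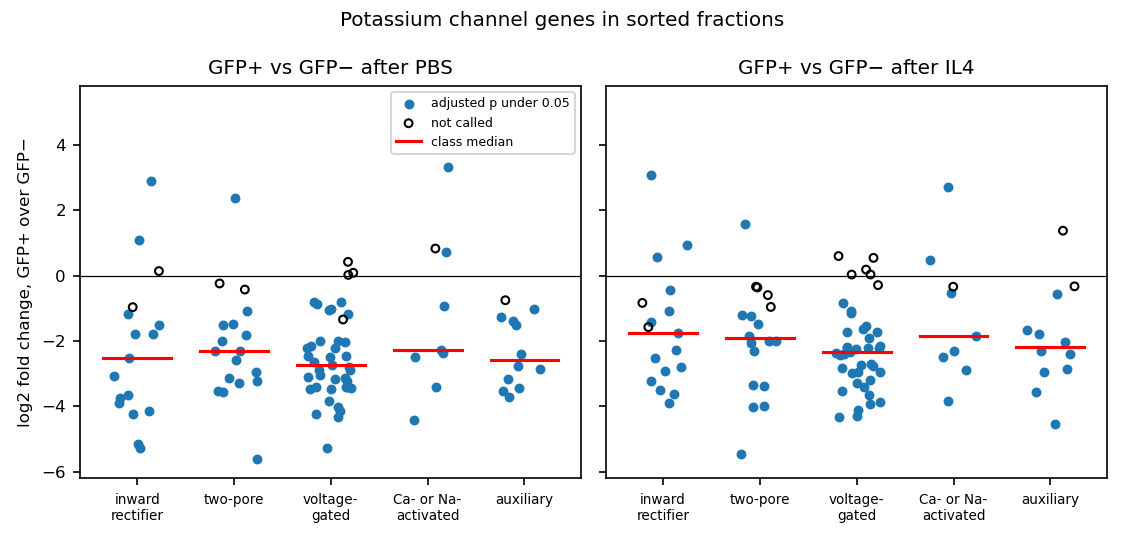
Log2 fold change of GFP-positive over GFP-negative cells for the 97 tested potassium channel genes, by class, after PBS and after IL4. Each point is a gene, filled where the adjusted p is under 0.05, and the red line is the class median; the medians lie between -2.74 and -2.27 after PBS, and points above 0 are few.

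In the voltage-gated class 0 of 41 tested genes were higher in GFP-positive cells under either injection. KCND3 (ENSDARG00000056101, GRCz10 chromosome 8, 28046924 to 28213678, plus strand, 7 exons) encodes a pore subunit of the rapidly inactivating A-type current. It read 77.3 and 73.7 CPM in PBS GFP-negative libraries and 10.1 and 11.6 CPM in PBS GFP-positive libraries. The groups did not overlap, and the log2 fold change was -2.80 ± 0.11 (SE, adjusted p = 4.47e-15). KCNC1 (chromosome 7), of the channel type that lets neurons fire at high rates, read 58.7 and 55.5 CPM against 5.85 and 4.44 CPM, a log2 fold change of -3.46 ± 0.15. Its paralogue on chromosome 25 was lower by a log2 fold change of -2.23 ± 0.22. After PBS, lower levels in the GFP-positive fraction were called for 5 of 5 tested kcna genes, 3 of 3 kcnb, 3 of 3 kcnd, 10 of 11 kcnh and 5 of 6 kcnq genes. Among the 4 voltage-gated subunits that were not called after PBS, kcnc4, KCNG1 and KCNH2 had fitted log2 fold changes of 0.42 ± 0.31, 0.09 ± 0.38 and -1.34 ± 0.84.

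Paralogues with a shared symbol did not all receive the same call. KCNK5, a two-pore channel sensitive to alkaline pH, was lower by -1.51 ± 0.43 on chromosome 17, while the chromosome 20 copy stood at -0.24 ± 0.42 and was not called (adjusted p = 0.617). KCNA2, a subunit of axonal delayed rectifiers in mammals, was lower by -1.02 ± 0.31 on chromosome 6 and by -3.41 ± 0.54 on chromosome 23. KCNJ3, a subunit of the G-protein-activated inward rectifier, was lower by -3.65 ± 0.19 on chromosome 6 and by -1.80 ± 0.19 on chromosome 9. In all, 14 symbols had a pair of tested genes (28 genes), and the difference within a pair was not tested. How reads with several alignments were counted is not stated, so the split between close copies is uncertain.

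Among two-pore channels, KCNK1 encodes a weak background channel and read 10.8 and 9.52 CPM in PBS GFP-negative against 1.23 and 0.471 CPM in PBS GFP-positive libraries (log2 fold change -3.54 ± 0.33). KCNK10 (chromosome 20), from the mechanically and heat-gated group, read 20.1 and 20.8 CPM against 4.62 and 5.70 CPM (-1.99 ± 0.18). KCNK12, which gives little current by itself, had 74 counts in the PBS GFP-negative libraries together and 1 in the GFP-positive libraries. This is a ratio of 59.9 with a 95% counting interval from 10.4 to 2396. After IL4 the counts were 67 and 1. Inward rectifiers with 1 count in the PBS GFP-positive libraries were read as ratios too. KCNJ5, a partner of KCNJ3, had 59 counts against 1 (47.7, interval 8.24 to 1916), and KCNJ8, the pore of vascular ATP-sensitive channels, had 54 against 1 (43.7, interval 7.51 to 1757).

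Of the calcium- or sodium-activated class, KCNMA1 (ENSDARG00000079840, GRCz10 chromosome 13, 16390976 to 16758119, plus strand, 30 exons) encodes the large-conductance channel opened by calcium and voltage together. It read 147 and 155 CPM in PBS GFP-negative and 31.2 and 31.4 CPM in PBS GFP-positive libraries (log2 fold change -2.27 ± 0.09). KCNT1 (chromosome 5), a sodium-activated channel, read 25.9 and 25.2 CPM against 2.47 and 2.30 CPM (-3.42 ± 0.19). Auxiliary subunits followed the same direction. The calcium sensor kcnip3a read 98.1 and 99.0 CPM against 15.1 and 13.6 CPM (-2.77 ± 0.12), while kcnip1b, which speeds the trafficking of kcnd channels, read 78.8 and 73.6 CPM against 32.5 and 30.2 CPM (-1.28 ± 0.09). KCNE4, a single-span subunit that in mammals inhibits several voltage-gated channels, read 29.2 and 32.4 CPM against 15.4 and 15.3 CPM (-1.01 ± 0.12).

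Against this direction, 6 genes were higher in GFP-positive cells after at least 1 injection: 3 inward rectifiers, 1 two-pore channel and 2 of the calcium- or sodium-activated class. KCNJ1 (ENSDARG00000002666, GRCz10 chromosome 10, 39382935 to 39386332, plus strand, 2 exons) encodes the inward rectifier known from salt transport in kidney and in fish ionocytes. It read 0.769 and 0.284 CPM in PBS GFP-negative and 3.98 and 3.92 CPM in PBS GFP-positive libraries. After IL4 it read 1.06 and 0.703 CPM against 6.99 and 8.06 CPM. The groups did not overlap under either injection, with log2 fold changes of 2.88 ± 0.40 (adjusted p = 2.15e-06) and 3.08 ± 0.37 (adjusted p = 3.16e-07). Of the other genes named KCNJ1, 2 met the count minimum without entering the test.

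The sodium-activated channel gene kcnt2a (ENSDARG00000075812, GRCz10 chromosome 2, 12235742 to 12296119, minus strand, 28 exons) read 0.461 and 0.162 CPM in PBS GFP-negative and 2.65 and 3.82 CPM in PBS GFP-positive libraries. After IL4 it read 0.127 and 0.484 CPM against 2.18 and 1.88 CPM. It was higher in GFP-positive cells in both, by 3.34 ± 0.55 and 2.72 ± 0.58 on the log2 scale, in contrast to the direction of both KCNT1 copies. KCNK6 (ENSDARG00000007383, GRCz10 chromosome 18, 46173086 to 46185444, minus strand) is a two-pore channel of the weak inwardly rectifying group. It read 0.461 and 0.446 CPM against 2.24 and 2.56 CPM after PBS (2.39 ± 0.52, adjusted p = 0.000406), and 0.424 and 1.1 CPM against 1.47 and 3.09 CPM after IL4 (1.58 ± 0.50, adjusted p = 0.00868). The call after IL4 was lost without IL4 GFP-negative replicate 1 (1.05, adjusted p = 0.136) and without IL4 GFP-positive replicate 2 (0.96, adjusted p = 0.163). Exons of a gene on the other strand cover 7.37% of KCNK6, and the strand setting of the counting is not stated.

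KCNJ13 (ENSDARG00000043443, GRCz10 chromosome 15, 40370204 to 40420433, minus strand, 7 exons) encodes the inward rectifier known in zebrafish for its part in stripe formation. It read 2.04 and 2.27 CPM in PBS GFP-negative and 4.34 and 4.91 CPM in PBS GFP-positive libraries (1.1 ± 0.28, adjusted p = 0.00168), and 2.67 and 2.24 CPM against 4.64 and 4.80 CPM after IL4 (0.94 ± 0.28, adjusted p = 0.00616). A gene on the other strand covers 9.64% of it. The small-conductance calcium-activated channel gene kcnn3 read 11.8 and 13.1 CPM against 17.1 and 24.2 CPM after PBS (0.72 ± 0.16), and 13.7 and 13.0 CPM against 18.5 and 18.9 CPM after IL4 (0.48 ± 0.16). The kcnn genes kcnn1a, kcnn1b and KCNN2 went the other way after PBS, with log2 fold changes of -2.36, -2.48 and -0.92. Both modest differences depended on scaling: with library totals in place of TMM factors, which moves the median of all genes by -0.48 after PBS and -0.44 after IL4, KCNJ13 stood at 0.62 (adjusted p = 0.0565) and 0.50 (adjusted p = 0.121), and kcnn3 at 0.24 (adjusted p = 0.198) and 0.05 (adjusted p = 0.818). Without IL4 GFP-negative replicate 2 the calls after IL4 were also lost, at 0.82 (adjusted p = 0.0672) for KCNJ13 and 0.45 (adjusted p = 0.0808) for kcnn3.

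KCNJ10 (chromosome 7; ENSDARG00000090815, GRCz10 6428836 to 6456325, minus strand, 5 exons) is the glial inward rectifier of mammals. It read 15.3 and 15.9 CPM in PBS GFP-negative and 15.7 and 18.7 CPM in PBS GFP-positive libraries. The groups overlapped and no difference was called (0.14 ± 0.14, adjusted p = 0.376), although library totals gave the opposite sign with a call (-0.34, adjusted p = 0.0337). After IL4 it read 18.8 and 22.5 CPM against 30.1 and 31.4 CPM, higher in GFP-positive cells by 0.57 ± 0.13 (adjusted p = 0.000857), a call lost with library totals (0.13, adjusted p = 0.391). A second copy, KCNJ10 (chromosome 2), was below the filter: it had 2 counts in PBS GFP-negative and 17 in PBS GFP-positive libraries, a ratio of 10.5 (95% counting interval 2.49 to 93.8). After IL4 it had 1 and 20 counts. KCNJ16, which pairs with KCNJ10 in mammalian glia, had 1 count in all and is no member.

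**Figure D2:**
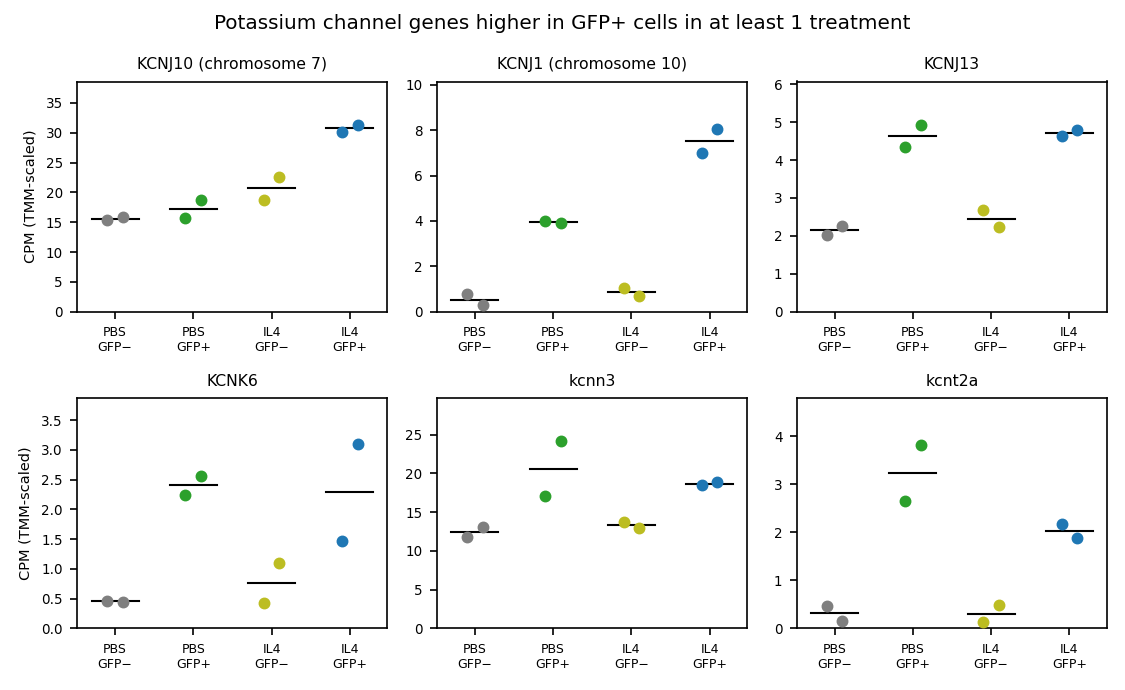
CPM (TMM-scaled) in each of the 8 libraries for the 6 potassium channel genes higher in GFP-positive cells after PBS, IL4 or both. Points are libraries and lines are means of 2; KCNJ10 (chromosome 7) overlaps between fractions after PBS and reaches 30.1 and 31.4 CPM in IL4 GFP-positive libraries.

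Levels were also compared between genes after division by gene length. Summed over the members, the level was 517 ± 0.929 CPM per kb (SD, n = 2) in PBS GFP-negative, 125 ± 1.45 in PBS GFP-positive, 578 ± 0.780 in IL4 GFP-negative and 151 ± 1.14 in IL4 GFP-positive libraries. Inward rectifiers made up 12.8% ± 0.177 of this sum in PBS GFP-negative and 21.5% ± 0.0296 in PBS GFP-positive libraries. After IL4 these shares were 31.3% ± 0.801 for GFP-positive and 14.6% ± 0.215 for GFP-negative libraries. Voltage-gated subunits made up 39.3% ± 0.356 and 30.8% ± 0.294 after PBS in the GFP-negative and GFP-positive libraries, and 40.3% ± 0.657 and 30.8% ± 0.412 after IL4. Two-pore channels held between 5.83% and 7.97% of the sum. In PBS GFP-negative libraries their 7.97% ± 0.038 was not apart from the 8.01% ± 0.232 of the calcium- or sodium-activated class, and in the other 3 groups they held the smallest share. Auxiliary subunits, which form no pore, held 31.9% of the sum in PBS GFP-negative and 29.4% in PBS GFP-positive libraries. After IL4 they held 29.1% in GFP-negative and 22.9% in GFP-positive libraries. These shares are given as a description, with no test.

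The order of single genes differed with the fraction. In PBS GFP-negative libraries kcnip3a led with 71.2 ± 0.458 CPM per kb, ahead of kcnip1b with 34.0 ± 1.64, KCNC1 (chromosome 7) with 25.7 ± 1.01 and KCND3 with 24.6 ± 0.827. The levels of KCNC1 and KCND3 are within the sum of their SDs of each other. In PBS GFP-positive libraries kcnip1b with 14.0 ± 0.751 and KCNJ10 (chromosome 7) with 13.5 ± 1.66 CPM per kb were not apart beyond their spread, and kcnip3a followed with 10.4 ± 0.759. In IL4 GFP-positive libraries KCNJ10 stood first with 24.0 ± 0.702, above kcnip3a with 11.9 ± 2.93 and kcnip1b with 9.52 ± 1.16, and it alone held 15.9% of the members' sum. The inward rectifiers without KCNJ10 held 11.7% and 9.91% of the sum in the PBS GFP-positive libraries and 16.2% and 14.6% in the IL4 GFP-positive libraries. In the GFP-negative libraries these other inward rectifiers held 10.6% and 10.3% after PBS and 11.9% and 11.7% after IL4.

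**Figure D3:**
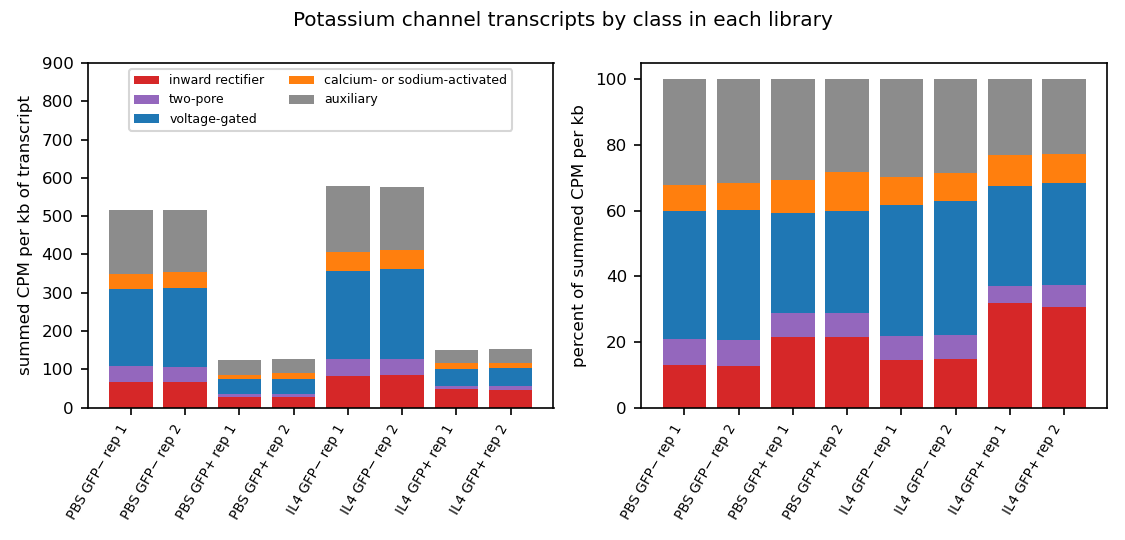
Summed level of potassium channel genes per library in CPM per kb of transcript (left) and the percent of that sum held by each class (right). Bars are single libraries stacked by class. The inward rectifier share is 12.8% in PBS GFP-negative, 21.5% in PBS GFP-positive, 14.6% in IL4 GFP-negative and 31.3% in IL4 GFP-positive libraries.

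The second question was what IL4 changed in GFP-positive cells. Of all genes tested, 28.7% were called, 13.9% higher and 14.8% lower after IL4. Of the 97 members 13 were higher and 2 lower, with a median log2 fold change of 0.21 beside 0.01 over all genes. The members higher were 13.4%, near the 13.9% of all genes, and those lower were 2.06%, beside 14.8% of all genes. Whether the members' shares differ from those of all genes was not tested. By class, 6 of 17 inward rectifiers rose and 0 fell (median 0.84), 4 of 41 voltage-gated subunits rose and 0 fell (median 0.42), 1 of 18 two-pore channels rose and 0 fell (median -0.09), 0 of 9 calcium- or sodium-activated channels were called (median 0.21), and 2 of 12 auxiliary subunits rose and 2 fell (median 0.34). Markers of cell types moved as well. Of the neuron markers 10 of 17 were higher and 0 lower (median 0.64), while 10 of 13 radial glia markers, 9 of 11 microglia and macrophage markers (median -1.32) and 7 of 10 oligodendrocyte markers (median -0.41) were lower. The microglia and macrophage sum was 769 to 774 CPM after PBS and 271 to 277 CPM after IL4. Library totals moved the split of all genes from 2847 higher and 3042 lower to 3476 and 2410, and that of the members to 16 and 2. The number of members lower was 5 without IL4 GFP-positive replicate 1 and 4 without IL4 GFP-positive replicate 2.

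Of the 13 rises, 4 held under all 13 alternatives: KCNJ10 (chromosome 7), kcnj19a, KCNC1 (chromosome 7) and KCND3. KCNJ10 went from 15.7 and 18.7 CPM to 30.1 and 31.4 CPM, a log2 fold change of 0.84 ± 0.14 (adjusted p = 9.69e-05), and every IL4 library lay above every PBS library. The inward rectifier gene kcnj19a (ENSDARG00000059747, GRCz10 chromosome 3, 38651641 to 38717447, plus strand, 3 exons) went from 8.05 and 5.33 CPM to 16.5 and 13.0 CPM (1.13 ± 0.20, adjusted p = 0.000227). KCNC1 (chromosome 7) went from 5.85 and 4.44 CPM to 8.30 and 11.5 CPM (0.93 ± 0.17, adjusted p = 0.000381). KCND3 went from 10.1 and 11.6 CPM to 17.1 and 15.5 CPM (0.59 ± 0.12, adjusted p = 0.000713). In these 4 genes the IL4 and PBS libraries did not overlap, which is a condition in the rule for naming members and adds no support to the calls. KCNC1 and KCND3 stayed well below their GFP-negative levels of 55.5 to 78.2 CPM.

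The other 9 rises were each lost when at least 1 of the 4 GFP-positive libraries was left out, some with a smaller change and others with a change of about the same size. Among inward rectifiers, kcnj19b went from 5.30 and 3.29 CPM to 9.94 and 6.30 CPM (0.90 ± 0.22), and stood at 0.48 (adjusted p = 0.16) without IL4 GFP-positive replicate 1 and at 0.55 (adjusted p = 0.0738) without PBS GFP-positive replicate 2. KCNJ3 (chromosome 9) went from 4.94 and 4.18 CPM to 6.06 and 8.34 CPM (0.65 ± 0.20), and stood at 0.35 (adjusted p = 0.325) without IL4 GFP-positive replicate 2 and at 0.48 (adjusted p = 0.149) without PBS GFP-positive replicate 2. The ATP-sensitive channel pore kcnj11 went from 0.183 and 0.209 CPM to 1.04 and 0.552 CPM (2.00 ± 0.60), a rise from a few counts that was lost without IL4 GFP-positive replicate 1 (1.42, adjusted p = 0.18) and without either PBS GFP-positive library. For KCNJ1 (chromosome 10), from 3.98 and 3.92 CPM to 6.99 and 8.06 CPM (0.93 ± 0.32, adjusted p = 0.0322), leaving out any of the 4 GFP-positive libraries ended the call (0.76 to 0.97), as did DESeq2 (0.88, adjusted p = 0.0855). The two-pore channel kcnk2b, a mechanically gated leak channel, went from 1.1 and 0.941 CPM to 2.02 and 2.54 CPM (1.15 ± 0.31), and was lost without PBS GFP-positive replicate 2 (0.99, adjusted p = 0.0571) or IL4 GFP-positive replicate 2 (0.92, adjusted p = 0.0895). The remaining 4 were kcnc3a, kcnq5a, KCNAB2 and KCNMB2 (chromosome 11), with log2 fold changes of 0.56, 1.69, 1.23 and 0.84. Without 1 library they went as low as 0.41 (kcnc3a, without IL4 GFP-positive replicate 2), 1.48 (kcnq5a, without PBS GFP-positive replicate 2), 0.46 (KCNAB2, without IL4 GFP-positive replicate 1; 0.68 without PBS GFP-positive replicate 1) and 0.51 (KCNMB2, without PBS GFP-positive replicate 1), none of them called.

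The 2 auxiliary subunits that fell in GFP-positive cells after IL4 did so under all 13 alternatives. KCNE4 (ENSDARG00000068257, GRCz10 chromosome 15, 43136612 to 43143967, plus strand) went from 15.4 and 15.3 CPM to 9.78 and 9.83 CPM, a log2 fold change of -0.65 ± 0.14 (adjusted p = 0.00126). The gene kcnip1b (ENSDARG00000034808, GRCz10 chromosome 10, 22034298 to 22062469, plus strand) went from 32.5 and 30.2 CPM to 23.2 and 19.5 CPM, a log2 fold change of -0.56 ± 0.10 (adjusted p = 0.000271). Both were lower in GFP-positive than in GFP-negative cells after IL4, by a log2 fold change of -1.77 ± 0.13 for KCNE4 and -2.02 ± 0.10 for kcnip1b.

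The third question was what IL4 changed in GFP-negative cells. Of all genes tested, 24.5% were called, 9.04% higher and 15.4% lower. Of the 97 members 12 rose and 6 fell, with a median of 0.00 beside -0.02 over all genes. Leaving out any 1 of the 4 GFP-negative libraries left 6 to 8 rises and 2 falls. The counts were 3 higher and 0 lower of 17 inward rectifiers, 1 and 2 of 18 two-pore channels, 4 and 2 of 41 voltage-gated subunits, 2 and 0 of 9 calcium- or sodium-activated channels, and 2 and 2 of 12 auxiliary subunits. Cell type markers of this fraction moved with IL4, and fewer cells of a type cannot be told apart from less RNA per cell. Microglia and macrophage markers summed to 7426 to 7685 CPM after PBS and 2199 to 2256 CPM after IL4 with 10 of 11 lower, endothelium markers were lower in 8 of 8, and neuron markers were higher in 10 of 17 (median 0.41). Radial glia markers were lower in 7 of 13 and higher in 2, and mural markers were lower in 3 of 8 and higher in 0. Of 10 oligodendrocyte markers 4 were higher and 3 lower. Their sum was 15082 to 15285 CPM after PBS and 19704 to 19902 CPM after IL4. The part of cell makeup in the channel values was not tested.

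Rises in GFP-negative cells that held under all alternatives were those of KCNJ6, KCNMA1, kcnc3a, KCNA1 (chromosome 25) and KCNH4 (chromosome 12). KCNJ6, a neuronal G-protein-activated inward rectifier, went from 19.8 and 26.7 CPM to 45.2 and 39.0 CPM (0.86 ± 0.17, adjusted p = 0.000745). KCNH4 (chromosome 12), of the ether-a-go-go-like group, went from 21.0 and 17.3 CPM to 36.0 and 40.8 CPM (1.0 ± 0.15, adjusted p = 3.29e-05). The delayed rectifier subunit gene KCNA1 (chromosome 25) went from 41.3 and 37.4 CPM to 65.5 and 64.9 CPM (0.73 ± 0.14), and kcnc3a from 40.1 and 42.6 CPM to 67.7 and 65.2 CPM (0.68 ± 0.10). KCNMA1 went from 147 and 155 CPM to 208 and 201 CPM (0.43 ± 0.08). In all 5 genes the IL4 and PBS libraries did not overlap, which is a condition in the rule for naming members and adds no support to the calls. The inward rectifier kcnj19b went from 36.8 and 36.4 CPM to 57.0 and 64.9 CPM (0.74 ± 0.15), a call lost with DESeq2 alone (0.75, adjusted p = 0.063). The rises of KCNK3 (chromosome 17), KCNH8, KCNT1 (chromosome 5), KCNIP4 and kcnip3b were each lost without 3 or more of the 4 GFP-negative libraries. Where the call was lost with a library left out, the change of KCNK3 was 0.85 to 0.96 (0.94 with all libraries), that of KCNH8 0.61 to 0.86 (0.85), that of KCNT1 0.39 to 0.43 (0.41), that of KCNIP4 0.55 to 0.69 (0.62) and that of kcnip3b 0.59 to 0.82 (0.70).

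The falls in GFP-negative cells that held under all alternatives were 2 voltage-gated subunits. The gene kcnb2a (ENSDARG00000038862, GRCz10 chromosome 2, 30161446 to 30193936, plus strand, 3 exons), a slow delayed rectifier, went from 5.81 and 4.01 CPM to 1.23 and 1.45 CPM, a log2 fold change of -1.87 ± 0.40 (adjusted p = 0.00136). The A-type subunit gene kcnd1 went from 34.5 and 40.4 CPM to 22.8 and 24.0 CPM (-0.68 ± 0.14, adjusted p = 0.000897). Other members of the same families did not follow: KCND3 stood at 0.00 ± 0.09 and KCND2 at 0.34 ± 0.13, neither called. The other 4 falls, of KCNK3 (chromosome 20), KCNK5 (chromosome 17), KCNAB1 and kcnab1b, were lost when any 1 of the 4 GFP-negative libraries was left out, with adjusted p from 0.0565 to 0.312. Their changes were then -1.82 to -1.29 (-1.58 with all libraries), -1.67 to -1.45 (-1.55), -0.83 to -0.55 (-0.70) and -0.56 to -0.41 (-0.49), in the same order. The rise of KCNJ10 (chromosome 7) by 0.41 ± 0.14 (adjusted p = 0.0342) was lost without PBS GFP-negative replicate 1 (0.38, adjusted p = 0.17), PBS GFP-negative replicate 2 (0.43, adjusted p = 0.108) or IL4 GFP-negative replicate 2 (0.27, adjusted p = 0.361).

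Set side by side, 3 members rose in both fractions, namely KCNJ10 (chromosome 7), kcnj19b and kcnc3a, while 10 rose in GFP-positive cells alone, 9 rose in GFP-negative cells alone, and 67 were called in neither. The 2 that fell in GFP-positive cells and the 6 that fell in GFP-negative cells were different genes, which with so few falls does not set the fractions apart. These side-by-side counts were not made over all genes tested, so they are given as a description of the members. A call in 1 fraction alone does not show a difference between fractions, which was tested as the difference of the IL4 changes.

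**Figure D4:**
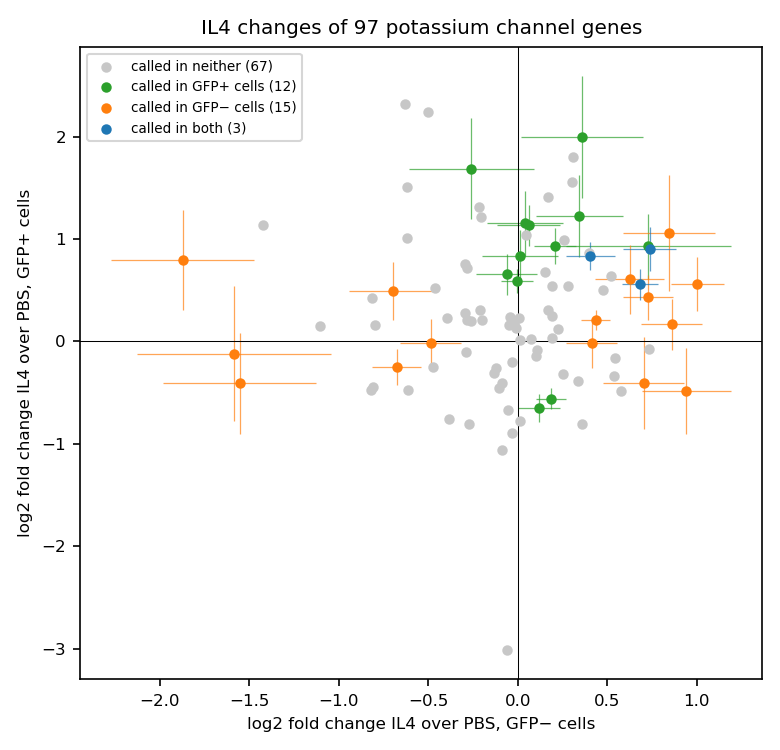
Log2 fold change of IL4 over PBS in GFP-negative cells (horizontal axis) and GFP-positive cells (vertical axis) for the 97 tested potassium channel genes. Bars are SEs, drawn for called genes; 3 genes are called in both fractions, 12 in GFP-positive cells alone and 15 in GFP-negative cells alone.

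Over all genes, 18.7% differed in their IL4 change between fractions, 11.5% with the higher change in GFP-positive cells and 7.26% with the lower. Of the 97 members 7 had the higher and 4 the lower change in GFP-positive cells, with a median difference of 0.22 beside 0.07 over all genes. RLE factors moved the split of all genes from 2355 and 1488 to 1941 and 1850, and that of the members to 6 and 4. Without 1 library the members numbered 3 to 6 and 2 to 6. The calls of KCNE4 (-0.77 ± 0.18, adjusted p = 0.00494) and kcnip1b (-0.74 ± 0.13, adjusted p = 0.000434) held under all 13 alternatives. KCNE4 fell in GFP-positive cells and read 29.2 and 32.4 CPM after PBS and 35 and 32.0 CPM after IL4 in GFP-negative cells, with overlapping groups. For kcnip1b the GFP-negative values were 78.8 and 73.6 CPM after PBS and 87.5 and 85.7 CPM after IL4, a change of 0.18 ± 0.09 that was not called.

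None of the 7 higher differences held under all alternatives. For kcnb2a the difference was 2.66 ± 0.63 (adjusted p = 0.00496), with 0.503 and 1.1 CPM after PBS and 1.86 and 0.884 CPM after IL4 in GFP-positive cells, and it was lost without IL4 GFP-positive replicate 1 (1.96, adjusted p = 0.0668). For kcnj19a it was 1.07 ± 0.27 (adjusted p = 0.00745). Its GFP-negative libraries read 20.3 and 17.9 CPM after PBS and 22.3 and 17.6 CPM after IL4. Its lower level in GFP-positive cells was -1.51 ± 0.19 after PBS and -0.44 ± 0.18 after IL4. The latter call was lost with DESeq2 (-0.47, adjusted p = 0.0518) and without either PBS GFP-negative library (-0.43 and -0.44). It was also lost without IL4 GFP-negative replicate 1 (-0.25) or IL4 GFP-positive replicate 2 (-0.26). The difference was lost without PBS GFP-positive replicate 2 (0.73, adjusted p = 0.0538), IL4 GFP-negative replicate 2 (0.91, adjusted p = 0.0534) or IL4 GFP-positive replicate 1 (0.81, adjusted p = 0.0651). For KCND3 it was 0.59 ± 0.15 (adjusted p = 0.00747), lost without PBS GFP-positive replicate 1 (0.41, adjusted p = 0.0866) or IL4 GFP-positive replicate 1 (0.45, adjusted p = 0.0721). For KCNC1 (chromosome 7) it was 0.72 ± 0.21 (adjusted p = 0.0202), lost without PBS GFP-negative replicate 1 (0.69, adjusted p = 0.0647), PBS GFP-positive replicate 2 (0.46, adjusted p = 0.158), IL4 GFP-negative replicate 1 (0.65, adjusted p = 0.0895) or IL4 GFP-positive replicate 2 (0.39, adjusted p = 0.244). The difference for KCNJ10 (chromosome 7) was 0.43 ± 0.19 and was not called (adjusted p = 0.132).

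**Figure D5:**
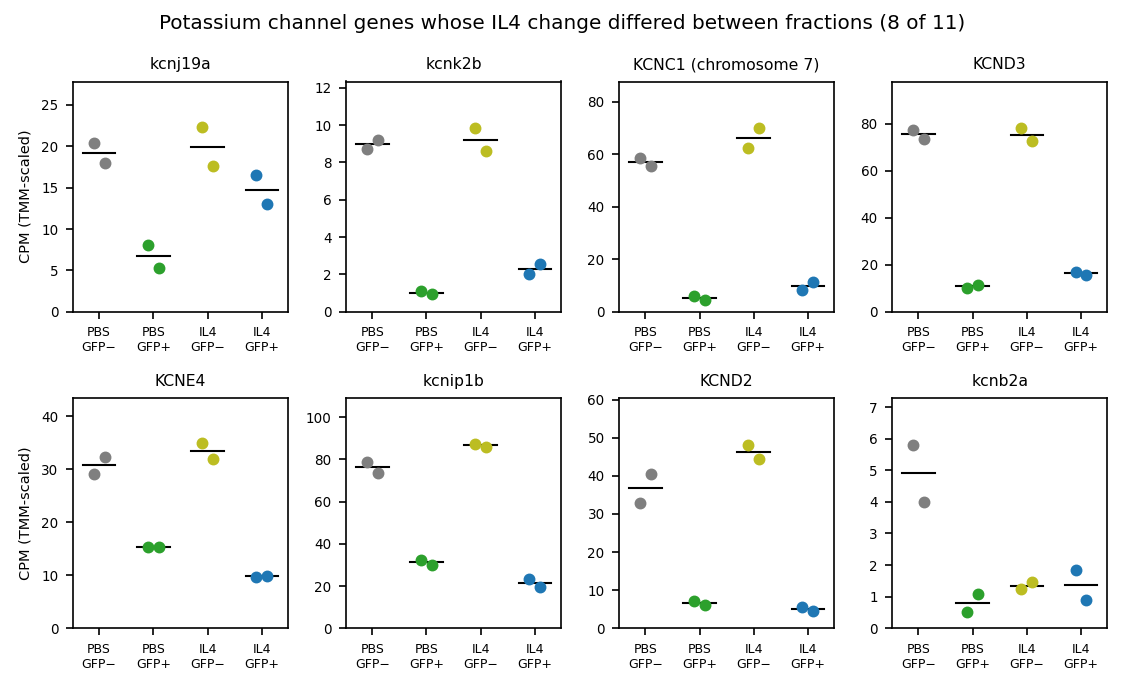
CPM (TMM-scaled) in each of the 8 libraries for 8 of the 11 potassium channel genes whose IL4 change differed between fractions. Points are libraries and lines are means of 2; KCNE4 and kcnip1b are lower after IL4 in GFP-positive cells, and kcnb2a is lower after IL4 in GFP-negative cells.

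Genes that work with potassium channels were read from 5 lists of 38 names, of which 33 matched 34 genes and 30 were tested. After PBS the GFP-positive fraction had 6 at a higher and 23 at a lower level, and after IL4 6 and 21. The shares after PBS were 20% and 76.7% of the partners, beside 32.6% and 39.1% of all genes tested. After IL4 they were 20% and 70%, beside 32.4% and 34.3%. Whether partners differ from all genes was not tested, and their calls under the alternatives are not given here. The 6 higher after PBS hold pump subunits, a cotransporter and gap junction proteins. ATP1B4, a member of the pump's beta subunit family, was higher in GFP-positive cells by 5.38 ± 0.05, and the beta subunit ATP1B1 (chromosome 6) by 0.82 ± 0.04. The potassium-chloride cotransporter SLC12A4 was higher by 2.60 ± 0.14, and the gap junction genes GJA1 and gja1a by 5.46 ± 0.04 and 2.37 ± 0.44. The neuronal pump subunit atp1a3a was lower by -3.33 ± 0.07. The astrocyte water channel gene AQP4 read at most 0.264 CPM in any library and was not tested.

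After IL4 in GFP-positive cells 6 partners rose and 8 fell (20% and 26.7%, beside 13.9% and 14.8% of all genes tested). The cotransporter slc12a5a, which lowers chloride in mature neurons, went from 0.914 and 2.46 CPM to 5.46 and 5.14 CPM (1.69 ± 0.28). ABCC9, the partner of KCNJ8 in ATP-sensitive channels, rose by 1.13 ± 0.41, and lrrc52, a channel accessory protein, by 1.73 ± 0.55. ABCC9 stayed below its GFP-negative level, by a log2 fold change of -4.16 after PBS and -3.24 after IL4. KCNJ8 itself had 1 count in the GFP-positive libraries after PBS and 3 after IL4. ATP1B1 (chromosome 6) fell by 0.21 on the log2 scale, and GJA1 fell by 0.21. In GFP-negative cells 4 rose and 10 fell (13.3% and 33.3%, beside 9.04% and 15.4% of all genes tested). Among them SLC12A4 fell by 0.97 and GJA1 by 0.75. The difference of the IL4 changes was called for 11 partners, with 8 higher and 3 lower in GFP-positive cells. These were 26.7% and 10% of the partners, beside 11.5% and 7.26% of all genes tested.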

How the data were processed

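Reads were counted per gene by the authors with featureCounts on GRCz10 (danRer10), per the submitters' processing notes. The deposited counts are whole numbers with no normalization. Versions, aligner, strand setting and the treatment of multiply aligned reads are not given in the sources used here. Per the labels' protocols, cDNA was made from poly-A RNA by template switching, amplified and read as single ends. The deposited gene length equals the merged exon length for all 31388 genes. Names were matched for 25925 genes, and 5463 had none. The design text of the series names other injections, another time and another number of replicates, and the libraries' labels were followed. All 8 count columns matched a library, and 0 were left over.

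edgeR 4.0.16 in R 4.3.3 was run on all 8 libraries with TMM factors, filterByExpr (minimum count 10), and the robust quasi-likelihood F test on means of the 4 groups. The filter kept 20508 genes and removed 10880. Benjamini-Hochberg adjustment ran over all 20508, two-sided, with calls under 0.05. The SE is the size of the log2 fold change over the root of its F value. Levels are CPM after TMM, and CPM per kb between genes. Ratios at 1 to 3 counts carry 95% counting intervals, which cover counting error only. The 13 alternatives were DESeq2's size factors (RLE) in edgeR, library totals, no low-count filter, a replicate block, DESeq2 1.42.0, and each of the 8 libraries left out. The steps were also run on simulated counts in which only a small set of genes changed. The sorted fractions differed in most genes, a setting that this run did not cover.

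Named are, by comparison and class, up to 5 called members in each direction with the largest changes and no overlap of libraries, the 4 highest per kb in each class, a list of well-known channels, and the partner genes that passed. Of the members so named, 74 in all, the text gives those on which the results turn. Absence of overlap in named genes is thus partly set by this choice, and its share over all genes was not counted. Members, markers and lists were chosen with earlier results of these data known.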

Additional observations from a re-analysis of the deposited data

Results flagged for a closer look

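For 11 of the 97 potassium channel genes tested, the change after IL4 differed between GFP-positive and GFP-negative cells in the edgeR test of the difference itself. It is given here on the log2 scale as the change in GFP-positive minus that in GFP-negative cells. Of the members 7.22% had a higher and 4.12% a lower change in GFP-positive cells, beside 11.5% and 7.26% of all genes tested. The difference was 2.66 for kcnb2a, 1.95 for kcnq5a, 1.19 for KCNAB1, 1.11 for kcnk2b, 1.07 for kcnj19a, 0.72 for KCNC1 (chromosome 7) and 0.59 for KCND3. It was -1.42 for KCNK3 (chromosome 17), -0.77 for KCNE4, -0.74 for kcnip1b and -0.72 for KCND2. Adjusted p ran from 0.000434 for kcnip1b to 0.0479 for KCNK3 (chromosome 17). The differences of KCNE4 and kcnip1b held under all 13 alternatives. Each of the 7 higher differences was lost under at least 1 alternative, that of kcnk2b under 12 of them. That of kcnq5a was lost with DESeq2 and without any library except PBS GFP-negative replicate 1. KCNAB1 was lost with DESeq2, without any IL4 library and without replicate 1 of either PBS group. The 2 other lower differences were lost too. KCNK3 (chromosome 17) was lost with library totals, with the replicate block, without any GFP-negative library, and without replicate 2 of either GFP-positive group. KCND2 was lost without either IL4 GFP-negative library, IL4 GFP-positive replicate 2, or replicate 1 of either PBS group. KCNK3 stood at -1.38 with library totals (adjusted p = 0.0541) and at -0.89 without IL4 GFP-positive replicate 2. KCND2 stood at -0.58 without PBS GFP-negative replicate 1.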

How the results depend on the processing

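Scaling by library totals moved the median of all genes by -0.48 (after PBS) and -0.44 (after IL4) on the log2 scale between fractions, and left 3 members higher in GFP-positive cells after PBS (5 with TMM) and 3 after IL4 (6 with TMM). It turned KCNJ10 (chromosome 7) after PBS to -0.34. The replicate block left 3 members lower after IL4 in GFP-negative cells (6 without it) and changed no other member count by over 1.5 times. The numbers are not taken as pairs, since the labels state no pairing. Deviations of same-numbered libraries correlated by -0.021 to 0.011, which cannot exclude pairing because counting error in low genes also lowers such values. DESeq2 also left 3 members lower after IL4 in GFP-negative cells, and 4 with a higher IL4 change in GFP-positive cells (7 with edgeR). With 1 library left out, where the lone library is assumed to vary like the others, members higher in GFP-positive cells numbered 5 to 7 after PBS and 4 to 8 after IL4, and members lower 76 to 82 and 63 to 76. After IL4, 9 to 13 rose and 2 to 5 fell in GFP-positive cells, and 6 to 14 rose and 2 to 7 fell in GFP-negative cells; the 6 came without IL4 GFP-negative replicate 2, and the 2 falls without any 1 of the 4 GFP-negative libraries. The difference of the changes was higher for 3 to 6 and lower for 2 to 6. The causes were not tested. RLE factors and dropping the low-count filter kept every member count within 1.5 times. Groups of 2 libraries limit the precision, and genes at a few counts cannot show modest changes at this depth.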
